A study of Rattus norvegicus with 8 samples.

Results

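Leukocyte and macrophage marker genes were followed in the hearts of rats in chronic hypoxia, a lasting shortage of oxygen, and in normoxia. The normoxia libraries are titled Control. The set held 5 genes, chosen by Ensembl gene ID as markers of leukocytes and macrophages: Ptprc, Cd68, Cd14, Lgals3 and Spp1. The rule used no measured value, but the members were chosen with earlier results of these data known. All 5 were found among the 21549 gene IDs of the files and all 5 passed the filter on low counts. Spp1 passed it through its hypoxia libraries, as its normoxia libraries alone would not have passed. The symbols are those given with the ID list. The files hold IDs only, and the gene table used here matched 0 of them, so the pairing of symbol and ID was not checked against an annotation.

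RNA from heart tissue of Sprague Dawley rats, an outbred laboratory strain, was sequenced at 3 months of age. The groups were 4 rats in chronic hypoxia and 4 rats in normoxia, with 1 library per rat, and no other treatment or genotype is given. Neither the sex of the rats, the region of the heart, the oxygen content nor the duration of exposure is given in the labels. Total counts ran from 26229304 to 32160710 per library. Because the other IDs carry no names here, the heart label and the content of other cell types could not be checked against defining markers.

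The healthy heart holds a resident population of macrophages among its muscle, endothelial and stromal cells, and monocytes from the blood can join them when the tissue is under stress. Ptprc encodes CD45, a receptor tyrosine phosphatase on the surface of nearly all nucleated blood cells that sets the activity of Src-family kinases. Cd68 encodes a heavily glycosylated membrane protein of macrophage lysosomes. Cd14 encodes a surface co-receptor that hands bacterial lipopolysaccharide to Toll-like receptor Tlr4. Lgals3 encodes galectin-3, a lectin that binds beta-galactosides and is made by macrophages and by several other cell types. Spp1 encodes osteopontin, a secreted phosphoprotein that binds integrins and CD44. It is made by activated macrophages, and stromal cells and stressed heart muscle cells can make it too.

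Promoter windows of 300 bases, from 250 before to 50 after the start site, were found for 4 of the 5 genes in RefSeq tables of the GRCr8 build, matched by symbol. They are shown because Cd68, Cd14 and Spp1 were called in the same direction, and Ptprc, which was not called, stands beside them. Capitals mark matches on either strand to GCGTG or ACGTG, which are core letters of the hypoxia response element, to TGANTCA, the AP-1 motif, or to GAGGAA, core letters bound by the myeloid factor PU.1.
Ptprc, GRCr8 chr13:52259697-52259996, minus strand: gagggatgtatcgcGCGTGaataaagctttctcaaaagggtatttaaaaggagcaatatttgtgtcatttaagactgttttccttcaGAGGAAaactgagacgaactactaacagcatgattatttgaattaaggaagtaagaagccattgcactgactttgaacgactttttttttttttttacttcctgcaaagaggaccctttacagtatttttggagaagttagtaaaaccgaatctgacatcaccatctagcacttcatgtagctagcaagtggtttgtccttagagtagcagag
Cd68, GRCr8 chr10:54882392-54882691, minus strand: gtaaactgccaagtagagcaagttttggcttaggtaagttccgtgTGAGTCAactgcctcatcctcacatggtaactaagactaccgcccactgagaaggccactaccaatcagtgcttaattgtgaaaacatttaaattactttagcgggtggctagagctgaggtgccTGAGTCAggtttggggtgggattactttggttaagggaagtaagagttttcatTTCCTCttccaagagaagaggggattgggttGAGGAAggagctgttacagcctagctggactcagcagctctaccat
Cd14, GRCr8 chr18:28611109-28611408, minus strand: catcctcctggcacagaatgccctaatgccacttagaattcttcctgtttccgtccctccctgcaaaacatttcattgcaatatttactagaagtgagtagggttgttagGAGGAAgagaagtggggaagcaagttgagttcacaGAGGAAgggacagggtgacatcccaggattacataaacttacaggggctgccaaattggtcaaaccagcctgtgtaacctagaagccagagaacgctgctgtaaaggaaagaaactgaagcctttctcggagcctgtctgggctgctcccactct
Spp1, GRCr8 chr14:5619755-5620054, minus strand: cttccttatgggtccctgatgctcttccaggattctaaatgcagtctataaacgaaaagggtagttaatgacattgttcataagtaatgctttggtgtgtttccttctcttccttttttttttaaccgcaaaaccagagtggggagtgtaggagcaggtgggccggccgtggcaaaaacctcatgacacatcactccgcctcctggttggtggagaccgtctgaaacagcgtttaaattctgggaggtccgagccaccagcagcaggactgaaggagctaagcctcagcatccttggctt

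The Cd68 window held 2 matches to TGANTCA, starting 205 and 80 bases before the start site, and 2 to GAGGAA. The Cd14 window held 2 matches to GAGGAA, 140 and 105 bases before the start site. The Ptprc window held 1 match to GAGGAA and 1 to GCGTG. The Spp1 window held none of the 4 motifs. Of all 33469 promoter windows of this length in the table, 7.33% held TGANTCA, 27.6% GAGGAA, 29.7% GCGTG and 19.3% ACGTG. These matches describe letters in the window only.

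Of the 5 genes, 4 rose in chronic hypoxia, and these were Cd68, Cd14, Lgals3 and Spp1. Ptprc did not pass the test. A gene was called at a Benjamini-Hochberg (BH) adjusted p under 0.05 over all 14214 genes tested with edgeR, after TMM scaling (trimmed mean of M values, which corrects library totals for the genes that dominate them). Calls were common in this comparison, at 33.0% of tested genes in either direction, 17.7% higher and 15.3% lower in hypoxia. Among tested genes 3.76% were called with at least a 2-fold rise, as Cd68, Cd14 and Spp1 were. All 4 hypoxia libraries lay above all 4 normoxia libraries in 4 of the 5 markers, against 17.3% of tested genes, and 17.1% lay the other way without overlap (TMM-scaled counts). The median log2 fold change was 1.18 over the 5 markers, against 0.01 over all genes tested. In bulk tissue, more cells of a type and more RNA per cell cannot be told apart.

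**Figure D1:**
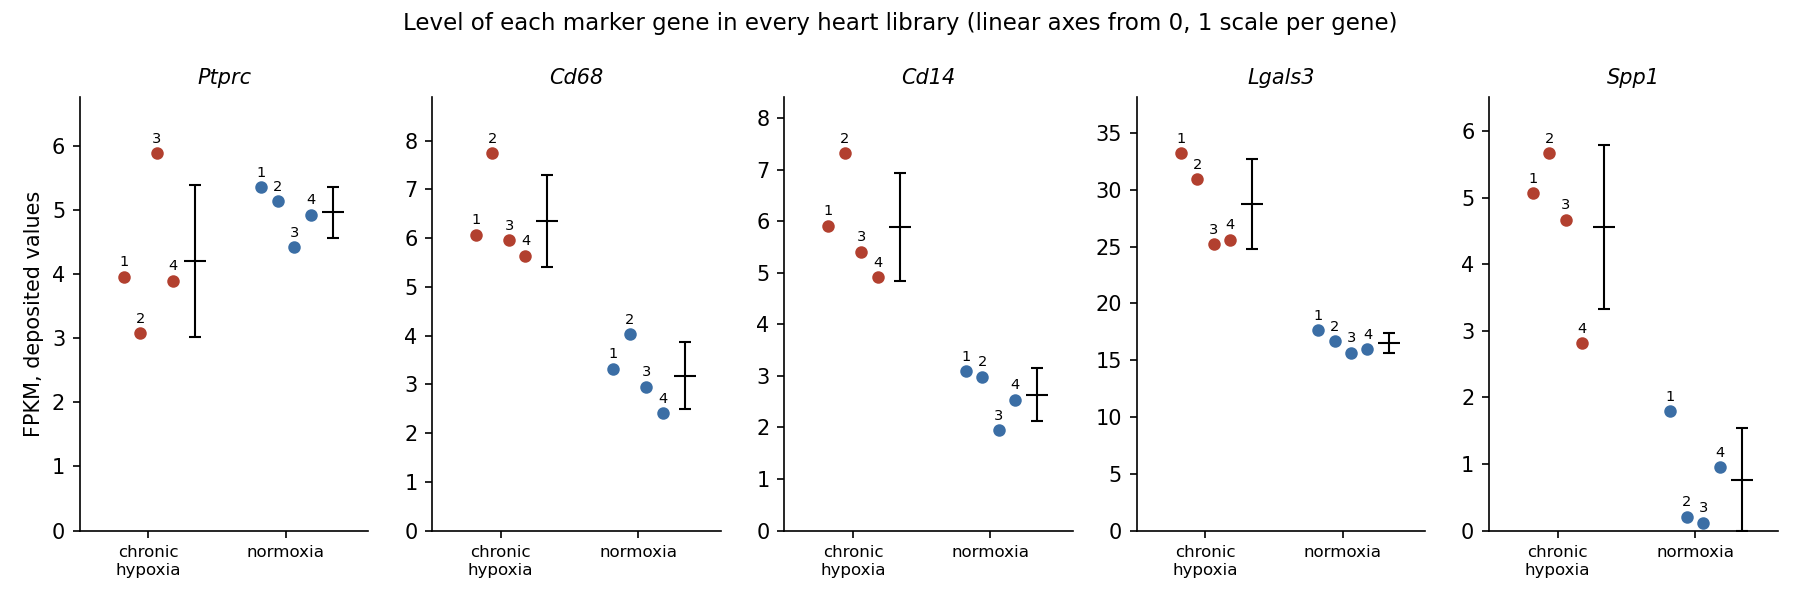
Level of each marker in every library, as the deposited FPKM (reads per unit of gene length, relative to the sum of the library, linear axes from 0, each gene with its own scale). Points are libraries numbered as in the labels, and the bar is the mean with its SD over 4 libraries, which for Spp1 in normoxia reaches below 0. All 4 hypoxia points lie above all 4 normoxia points for Cd68, Cd14, Lgals3 and Spp1, while the groups overlap for Ptprc.

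Ptprc (ENSRNOG00000000655), the general leukocyte marker, had 3.96, 3.08, 5.89 and 3.90 FPKM in hypoxia libraries 1 to 4, against 5.36, 5.14, 4.42 and 4.93 FPKM in normoxia libraries 1 to 4. Hypoxia library 3 was the highest of all 8, so the groups overlapped, and on FPKM the other hypoxia libraries were below every normoxia library. On TMM-scaled CPM, which divides counts by the corrected library total, hypoxia library 4 at 21.99 was above normoxia library 3 at 20.9. The mean was 4.21 ± 1.19 FPKM in hypoxia and 4.96 ± 0.402 FPKM in normoxia (SD, n = 4 each). In the fit the log2 fold change was −0.08 (SE 0.15; BH-adjusted p = 0.730 in edgeR). Its 95% interval ran from −0.41 to 0.26 on the log2 scale, or from 0.751 to 1.20 times the normoxia level. Without hypoxia library 3 the log2 fold change was −0.24 (BH-adjusted p = 0.110 in edgeR), and without hypoxia library 2 it was 0.02 (BH-adjusted p = 0.914 in edgeR).

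Cd68 (ENSRNOG00000037563), the lysosomal macrophage marker, had 6.07, 7.74, 5.96 and 5.64 FPKM in hypoxia libraries 1 to 4, against 3.32, 4.03, 2.95 and 2.41 FPKM in normoxia libraries 1 to 4. The lowest hypoxia library was 1.40 times the highest normoxia library. The fit gave a 2.27-fold rise, with a log2 fold change of 1.18 (SE 0.17; BH-adjusted p = 0.00121 in edgeR), and all 4 hypoxia libraries were higher. The 95% interval of the fold ran from 1.74 to 2.97. These values rested on 940 counts over the hypoxia libraries and 464 over the normoxia libraries.

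Cd14 (ENSRNOG00000017819), the lipopolysaccharide co-receptor, had 5.91, 7.32, 5.41 and 4.92 FPKM in hypoxia libraries 1 to 4, against 3.09, 2.99, 1.95 and 2.54 FPKM in normoxia libraries 1 to 4. Every hypoxia library again lay above every normoxia library, the nearest pair differing 1.59-fold. The rise was 2.53-fold, a log2 fold change of 1.34 (SE 0.18; BH-adjusted p = 0.000838 in edgeR), with a 95% interval of the fold from 1.92 to 3.33. Hypoxia library 2 had the highest level of both Cd14 and Cd68, and the lowest of Ptprc.

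Lgals3 (ENSRNOG00000010645), encoding galectin-3, had 33.2, 30.9, 25.2 and 25.6 FPKM in hypoxia libraries 1 to 4, against 17.7, 16.7, 15.7 and 16.0 FPKM in normoxia libraries 1 to 4. The normoxia libraries lay close together, and the lowest hypoxia library was 1.43 times the highest of them. The rise was 1.97-fold, a log2 fold change of 0.98 (SE 0.11; BH-adjusted p = 0.000415 in edgeR). The 95% interval of the fold, 1.67 to 2.33, was the narrowest of the 4 called markers, and Lgals3 also had the most counts of them, 3715 in hypoxia and 2114 in normoxia.

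Spp1 (ENSRNOG00000043451), encoding osteopontin, had 5.07, 5.67, 4.67 and 2.81 FPKM in hypoxia libraries 1 to 4, against 1.79, 0.210, 0.115 and 0.952 FPKM in normoxia libraries 1 to 4. It was expressed in every hypoxic heart at a level above every normoxic heart, and the normoxic hearts differed widely among themselves. Their counts were 85, 9, 5 and 43, so that 2 of the 4 normoxia libraries rested on fewer than 10 counts, against 133 to 277 counts in the hypoxia libraries. Spp1 thus entered the test, and its rank among tested genes, through the group where it was high. The rise was 6.57-fold, a log2 fold change of 2.72 (SE 0.60; BH-adjusted p = 0.00760 in edgeR), with a wide 95% interval of the fold from 2.61 to 16.5. The size depended on normoxia library 1: without it the log2 fold change was 3.55 (BH-adjusted p = 0.00452 in edgeR). It was 3.38 in limma-voom (adjusted p = 0.00388) and 1.72 in limma on log2(FPKM + 1) (adjusted p = 0.00245), a scale that understates the change of low genes.

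**Figure D2:**
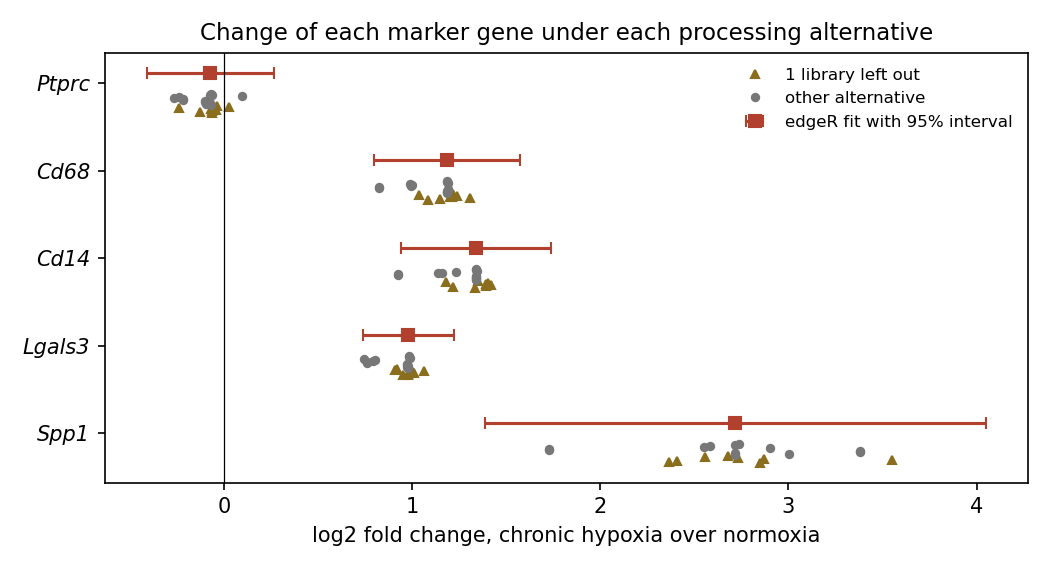
Log2 fold change of each marker, chronic hypoxia over normoxia. Squares are the edgeR fit with its 95% interval, triangles the fits with 1 library left out and circles the other alternatives, spread vertically for legibility. Cd68, Cd14, Lgals3 and Spp1 stay to the right of 0 under each alternative, and Ptprc lies on both sides of 0.

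The direction of these results was read relative to TMM scaling. The deposited FPKM use library totals, so the fitted folds of Cd68, Cd14, Lgals3 and Spp1 are larger than the ratios of their mean FPKM, which were 2.00, 2.23, 1.74 and 5.94. With library totals alone the tested genes had a median log2 fold change of −0.17, and calls split into 1426 higher and 3870 lower, against 2516 higher and 2177 lower with TMM. On that scaling the log2 fold changes were 1.00 for Cd68, 1.16 for Cd14, 0.80 for Lgals3 and 2.55 for Spp1, all still called (edgeR adjusted p from 0.000670 to 0.00813). Ptprc stood at −0.24 there (BH-adjusted p = 0.295 in edgeR).

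Gene-model length moved with the comparison and with the markers. Cd68, Cd14, Lgals3 and Spp1 had gene models of 1241, 1698, 1086 and 1519 bp, shorter than the 2337 bp median of tested genes, and Ptprc had 5050 bp. Among other tested genes within 10% of the same length, the median log2 fold change was 0.20 for the length of Cd68, 0.11 for Cd14, 0.23 for Lgals3 and 0.16 for Spp1, against −0.16 for Ptprc. At those lengths 30.02%, 23.4%, 32.1% and 25.3% of genes were called higher for Cd68, Cd14, Lgals3 and Spp1, and 8.02% for Ptprc. The change of Cd68 was above that of 96.9% of the genes of like length, Cd14 above 97.6%, Lgals3 above 94.0%, Spp1 above 99.6% and Ptprc above 59.9%. After a lowess correction for length in each library, the log2 fold changes were 0.99 for Cd68, 1.23 for Cd14, 0.74 for Lgals3 and 2.58 for Spp1, all still called (edgeR adjusted p from 0.000723 to 0.0120). Ptprc was then at 0.09 (BH-adjusted p = 0.652 in edgeR).

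**Figure D3:**
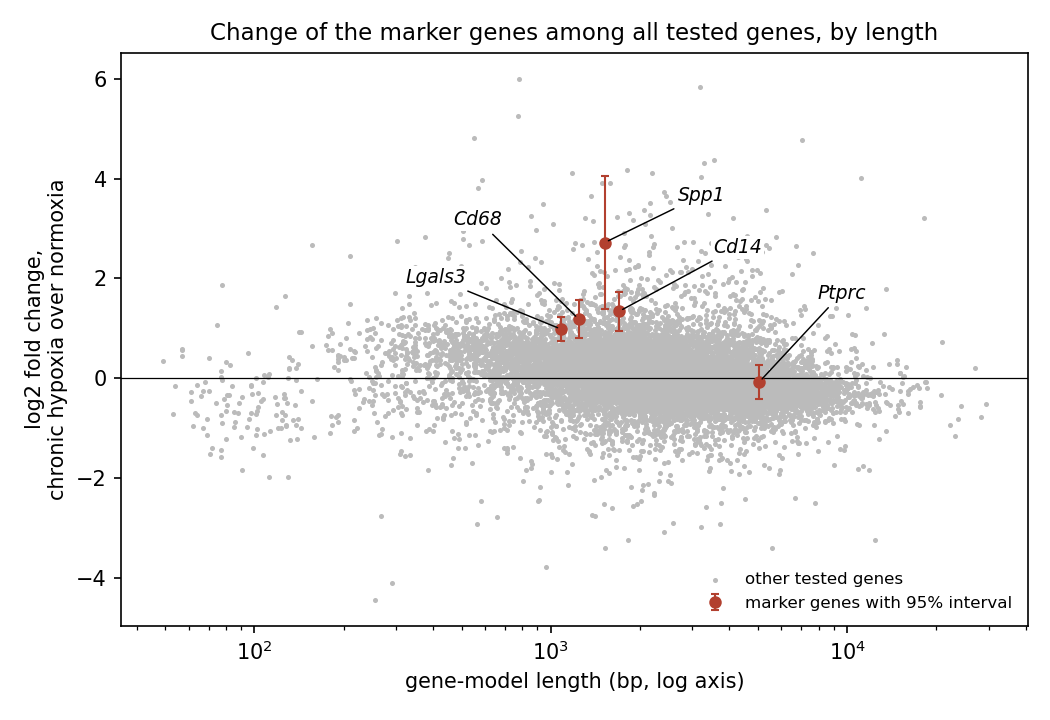
Log2 fold change, chronic hypoxia over normoxia, against gene-model length on a log axis. Grey points are the other tested genes and red points the 5 markers with 95% intervals. Cd68, Cd14, Lgals3 and Spp1, at 1086 to 1698 bp, lie in the upper part of the cloud, and Ptprc, at 5050 bp, lies within it near 0.

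Whether the other 4 markers changed differently from Ptprc was tested with their level relative to Ptprc in the same library, a ratio that does not depend on how libraries are scaled. The FPKM of Cd68 was 1.53, 2.51, 1.01 and 1.45 times that of Ptprc in hypoxia libraries 1 to 4, against 0.620, 0.784, 0.667 and 0.489 times in normoxia libraries 1 to 4. Cd68 was thus above Ptprc in every hypoxic heart and below it in every normoxic heart. The ratio of Cd14 to Ptprc was 1.49, 2.38, 0.919 and 1.26 in hypoxia and 0.576, 0.581, 0.441 and 0.514 in normoxia. That of Lgals3 was 8.39, 10.04, 4.29 and 6.57 in hypoxia, and it stood within a narrow 3.24 to 3.54 in normoxia. That of Spp1 was 0.721 to 1.84 in hypoxia and 0.0259 to 0.334 in normoxia.

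On the log2 scale the mean ratio to Ptprc was higher in hypoxia than in normoxia by 1.29 for Cd68, 1.44 for Cd14, 1.07 for Lgals3 and 3.57 for Spp1. In each case all 4 hypoxia libraries lay above all 4 normoxia libraries (n = 4 each, two-sided exact permutation p = 0.0286, adjusted over the 4 ratios 0.0286). This is the smallest p that 70 assignments of the libraries can give, and the adjusted value equals it because all 4 ratios reach it. The ratios share Ptprc as denominator and are not independent of each other or of the fold changes above. Ptprc was the marker that was not called, and the ratio tests were chosen with earlier results of these data known. Their p values are therefore no separate evidence beside the fold changes. The Spp1 difference of 3.57 rests on normoxia libraries 2 and 3 with 9 and 5 counts, and it was 1.94 as a log2 ratio of FPKM + 1. The scaling of libraries cancels in the 4 ratios, but the trend with gene-model length does not. With that trend removed, an alternative chosen after the data were seen, the differences were 0.92 for Cd68, 1.16 for Cd14, 0.66 for Lgals3 and 3.25 for Spp1 (n = 4 each, exact permutation p = 0.0286 for each ratio). Hypoxia library 2 had the highest ratio for each of the 4 markers, and hypoxia library 3, where Ptprc was highest, had the lowest for Cd68, Cd14 and Lgals3.

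**Figure D4:**
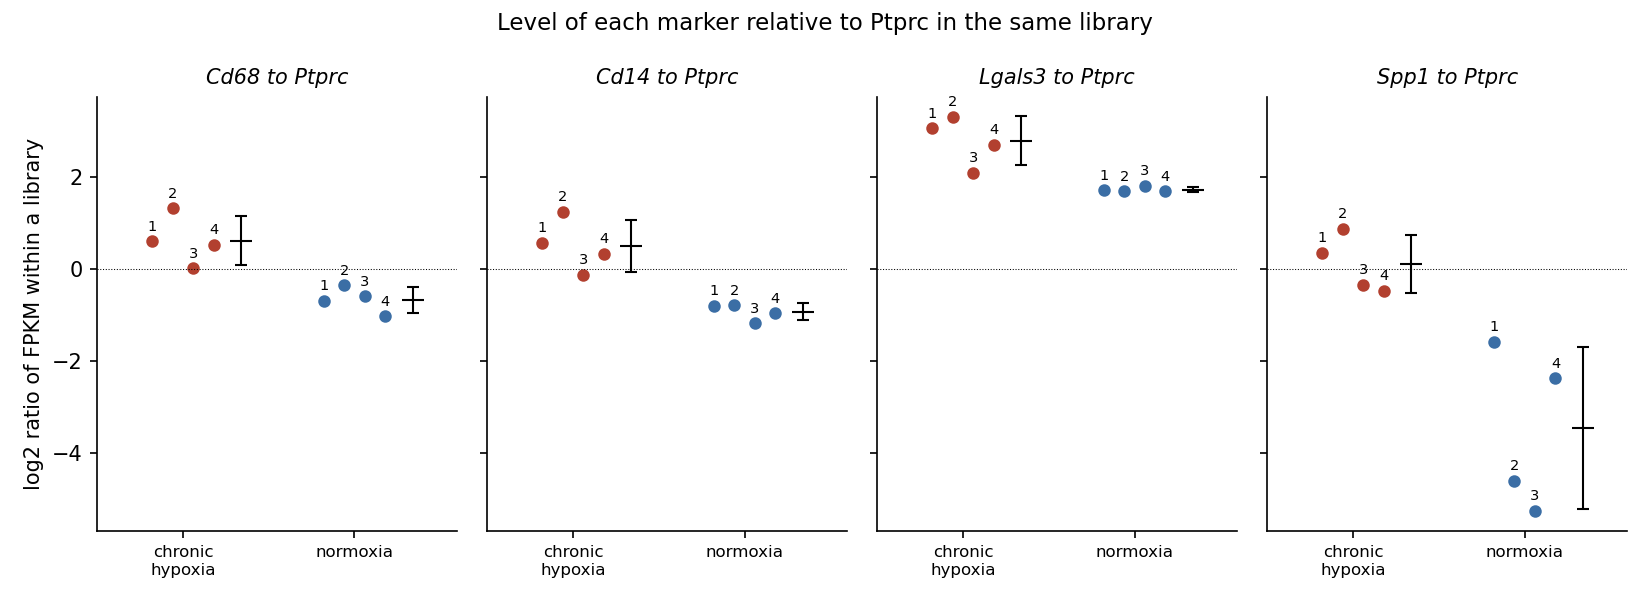
Log2 ratio of the FPKM of each marker to that of Ptprc in the same library, on a shared axis, with the dotted line at equal levels. Points are libraries numbered as in the labels and bars the mean with its SD over 4 libraries. In each panel the hypoxia points lie above the normoxia points, and the normoxia points spread most for Spp1.

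The order of the markers by FPKM, which is a level per gene-model length, differed between the groups. Lgals3 was the most abundant in all 8 libraries, averaging 28.8 ± 3.96 FPKM in hypoxia and 16.5 ± 0.886 FPKM in normoxia (SD, n = 4 each). In hypoxia it was followed by Cd68 at 6.35 ± 0.944, Cd14 at 5.89 ± 1.04, Spp1 at 4.55 ± 1.23 and Ptprc at 4.21 ± 1.19 FPKM. Cd68 was above Cd14 in all 4 hypoxia libraries by less than their SD. Cd14 was above Spp1 in all 4, while Spp1 was above Ptprc in 2 of 4. In normoxia Ptprc came after Lgals3, at 4.96 ± 0.402 FPKM, and was above Cd68, Cd14 and Spp1 in all 4 libraries. Cd68 at 3.18 ± 0.680 and Cd14 at 2.64 ± 0.519 FPKM differed there by less than the SD of Cd68, with Cd68 higher in 3 of 4 libraries, and Spp1 was lowest at 0.766 ± 0.777 FPKM. Among all tested genes, the mean level of Spp1 was above 48.5% in hypoxia and 14.8% in normoxia, and that of Lgals3 above 87.5% in hypoxia and 77.3% in normoxia. Ptprc kept nearly the same place, above 46.5% in hypoxia and 47.0% in normoxia.

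The profiles of Cd68, Cd14 and Lgals3 over the 8 libraries lay close to each other. Likeness was measured as the root mean square distance between profiles of log2 CPM on TMM scaling, each centred on its own mean, over 8 libraries. The difference between the groups is part of each profile, so genes with like fold changes lie close by construction. The distances are therefore no separate evidence beside the fold changes. Cd14 was the 14th nearest of 14213 other tested genes to Cd68, at a distance of 0.20, and Cd68 the 8th nearest to Cd14. Lgals3 was the 35th nearest to Cd68 and the 30th nearest to Cd14. Among the genes nearest to Lgals3, Cd68 ranked 420 and Cd14 ranked 632. Spp1 was far from the other markers in distance, with Cd14 nearest at 1.33, but its median distance to all genes was also large, at 1.95. In its own list Cd14 ranked 107, Cd68 352 and Lgals3 384. Ptprc ranked 7656 or farther in the lists of the other 4 markers. The gene nearest to Lgals3 was ENSRNOG00000006052, at a distance of 0.08 and with a log2 fold change of 0.88 (SE 0.11; BH-adjusted p = 0.000556 in edgeR). The gene nearest to Cd14 was ENSRNOG00000048771, at 0.10 and with a log2 fold change of 1.33 (SE 0.18; BH-adjusted p = 0.000972 in edgeR). Both IDs carry no name in the files.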

How the data were processed

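The authors deposited whole-number read counts per gene and FPKM for each library. Per the submitters' processing notes, bcl2fastq, Bowtie2 2.2.3, HISAT2 2.1.0, HTSeq 0.6.0 and the build rn6 were used. The annotation release and strand setting were not given in the sources used here, nor was the aligner behind the counts, so overlapping and antisense genes cannot be separated. Per the labels' protocols, RNA was extracted with Trizol and libraries made with the NEBNext Ultra RNA kit. Count, FPKM and library total returned 1 whole length per gene in 100% of values above 0 (relative tolerance 0.001), so the deposited FPKM hold no other scaling.

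All genes were fitted with edgeR 4.0.16 in R 4.3.3 (filterByExpr, minimum count 10, TMM, quasi-likelihood test, group as the only term), which was tested on simulated data. The simulation gave both groups the same spread and held no trend with gene length. In these data the common coefficient of biological variation was 22.9% in hypoxia and 9.54% in normoxia. Adjustment was over all tested genes. The SE of a log2 fold change comes from the test statistic and intervals from its t quantile. Ratios used exact permutation tests in scipy 1.17.1. Alternatives used limma 3.58.1, DESeq2 1.42.0, other scalings and filters, a lowess length correction (span 0.3), the replicate block and each library left out. Intervals cover the spread between these animals and counting error. The filter left 7335 genes untested. The genes named are the 5 markers and the nearest profiles, at most 2 unnamed IDs that rose. The members, lists and tests were chosen with earlier results of these data known. Lists of other cell type markers and pathway genes were not analysed here, for want of names for the IDs.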

Additional observations from a re-analysis of the deposited data

Results flagged for a closer look

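Cd68 in hypoxia library 2 stood apart from the other hypoxia libraries on TMM-scaled CPM. It had 10.7 CPM there, against 7.68, 7.44 and 7.82 CPM in hypoxia libraries 1, 3 and 4, and the gap to the nearest of them was 0.883 of the whole range (Dixon's 95% critical value for 4 samples is 0.829). All 4 were above the normoxia libraries, at 2.91 to 4.62 CPM, and without hypoxia library 2 the log2 fold change of Cd68 was 1.04 (BH-adjusted p = 0.00220 in edgeR). It was the 1 case among 28 groups of 4 values examined, on FPKM, on TMM-scaled CPM and as ratios to Ptprc, and chance marks about 5% of such groups. On FPKM no library of the markers stood apart in this way.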

How the results depend on the processing

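The calls of Cd68, Cd14, Lgals3 and Spp1 kept their direction and stayed called in 83 of 83 combinations of gene and alternative, with a largest adjusted p of 0.0232. Their log2 fold changes ranged from 0.82 to 1.31 for Cd68, 0.92 to 1.42 for Cd14, 0.74 to 1.06 for Lgals3 and 1.72 to 3.55 for Spp1. Spp1 fell under the filter when a mean of 5 CPM was required. Ptprc was called under none of its 21 alternatives (adjusted p from 0.110 to 0.914). Its sign turned to 0.0917 with the gene-model length correction, and it ran from −0.244 to 0.0226 with 1 library left out. The cause was not tested. The number of genes called was 3315 to 5296 over the alternatives, against 4693. The replicate numbers gave no sign of pairing, with same-number correlations from −0.0847 to 0.0187 and 0 of 4 libraries of either group correlating best with their own number. With 4 libraries per group a weak pairing could go unseen. Blocking on the replicate number gave 3841 calls, and the log2 fold changes were −0.10 for Ptprc, 1.19 for Cd68, 1.34 for Cd14, 0.97 for Lgals3 and 3.00 for Spp1, with no marker's call changed. The 4 ratios to Ptprc kept their direction in each of their 12 alternatives, of which the length correction was chosen after seeing the data. They ran from 0.92 to 1.49 for Cd68, 1.14 to 1.65 for Cd14, 0.66 to 1.30 for Lgals3 and 1.94 to 4.19 for Spp1. Several of these alternatives could hardly have turned the direction. Blocking on the replicate number leaves the difference of the mean log2 ratios unchanged by construction. The ratio of counts plus 0.5 differs from the FPKM ratio by little more than a constant length term. With a library left out only direction was read, which cannot turn when every hypoxia library lies above every normoxia library. The paired exact permutation test gave p = 0.125 for each ratio. This is the smallest p it can give, so it cannot decide the question. Counts of 5 and 9 limit the level of Spp1 in normoxia libraries 3 and 2.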

Other observations

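The spread between libraries, which holds counting error as well as differences between animals, differed among the markers. As a coefficient of variation of TMM-scaled CPM, Spp1 varied by 27.3% in hypoxia and 101% in normoxia, where counting error at its mean count would give 16.8%, and its highest normoxia library was 15.5 times its lowest. Ptprc varied by 23.9% in hypoxia and 7.95% in normoxia, and Lgals3 by 14.2% in hypoxia and 4.82% in normoxia. Cd68 varied by 18.3% in hypoxia and 19.6% in normoxia, and Cd14 by 20.4% in hypoxia and 19.0% in normoxia. Counting error in normoxia would give 3.68% for Ptprc, 4.35% for Lgals3, 9.28% for Cd68 and 8.69% for Cd14. The median tested gene varied by 16.1% in hypoxia and 8.75% in normoxia.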
